A study of Mus musculus with 4 samples.

Results

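Matricellular proteins and small leucine-rich proteoglycans were examined as a group of 10 genes in 3T3-L1 preadipocytes treated with Nutlin-3a. The genes were chosen by name, with earlier results of these data known, as Sparc, Postn, Tnc, Thbs1, Thbs2, Ctgf, Fn1, Dcn, Bgn and Lum. All 10 were among the 16709 gene symbols of the authors' table. RNA sequencing compared cells given 25 µM Nutlin-3a for 24 h with cells given the vehicle DMSO in parallel, with 2 biological replicates in each group. Nutlin-3a blocks the pocket of MDM2 that holds p53. 3T3-L1 is a mouse fibroblast-like line that can become adipocytes, labelled here as preadipocytes and grown in serum-containing medium. The line is clonal, so the values describe 1 cell line in culture.

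Matricellular proteins are secreted into the matrix, where they tune how cells attach and respond to growth factors more than they bear load. SPARC, periostin, tenascin-C, the thrombospondins and CTGF belong to this class. Fibronectin, encoded by Fn1, is an adhesive glycoprotein of the matrix itself and stands beside the class rather than in it. Decorin, biglycan and lumican are small leucine-rich proteoglycans, which carry sugar chains on a repeat-built core, bind collagen fibrils and hold growth factors such as TGF-beta. Preadipocytes make a fibroblast-type matrix, and this matrix is remodelled when they turn into adipocytes.

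For each transcript the authors deposited a single FPKM value per group, where FPKM counts fragments per kilobase of a transcript relative to all fragments mapped. Transcript values were summed per gene. The table holds no value per library, so the differences below have no replicate check, no SD and no p-value, and "higher" and "lower" refer only to the sizes of those values. Log2 ratios compare FPKM + 1 of Nutlin-3a with that of DMSO, a scale that shrinks differences of weak genes. Folds were taken on FPKM itself. Genes were compared when their mean FPKM was at least 1 and both values lay above 0, and a difference of at least 2-fold on the log2(FPKM + 1) scale was the limit for calling a gene lower or higher. The p53 target Cdkn1a stood at 386 FPKM with Nutlin-3a and 35.2 FPKM with DMSO. All 6 p53 targets examined were at least 2-fold higher, against 6.62% of all genes compared. In bulk RNA such as this, fewer cells of a type and less RNA per cell cannot be told apart.

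The members split into 3 genes that were lower in Nutlin-3a and 6 that stayed within 2-fold. Sparc, Dcn and Postn were lower, none was higher, and Lum was too weak to compare. Among all 10331 genes compared, 6.14% were at least 2-fold lower and 6.62% at least 2-fold higher. Beside that background, 3 of 9 compared members (33.3%) were lower. The members and the gene lists below were chosen with earlier results of these data known, so these shares describe them and test nothing. The median log2 ratio of the 9 members was -0.33, with values from -1.56 to 0.41, while the median of all genes was 0.07. A log2 ratio below 0 was found in 6 of the 9 members and in 45.2% of all genes. The median of 12 housekeeping genes, -0.32, was close to that of the members.

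**Figure D1:**
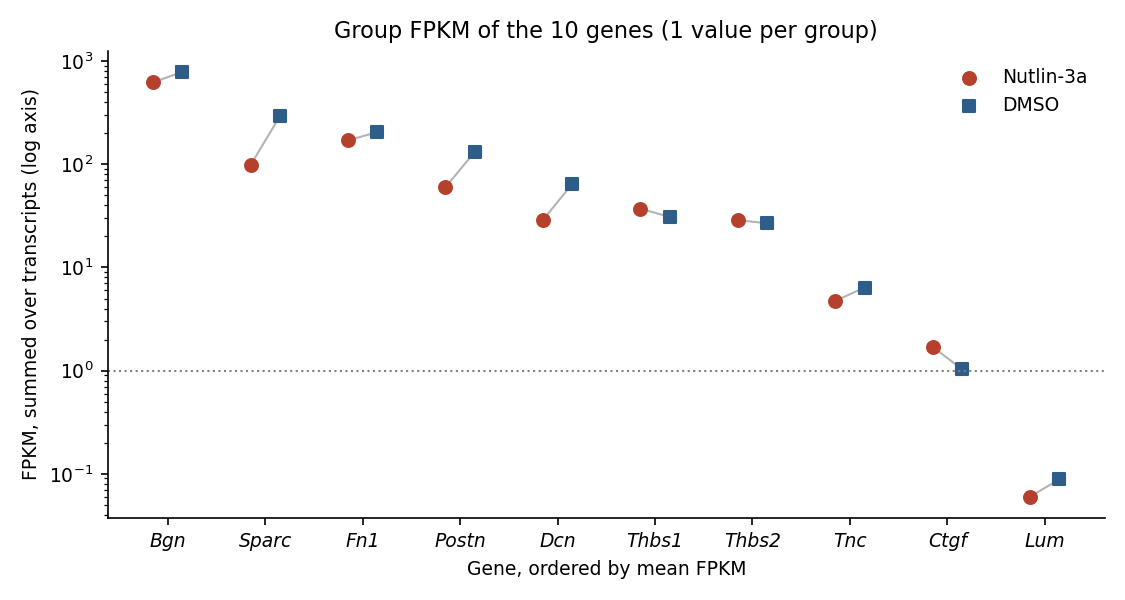
FPKM of the 10 genes, summed over transcripts, on a log axis, with circles for Nutlin-3a, squares for DMSO and a dotted line at 1 FPKM, the minimum mean for a comparison. Bgn is highest in both groups, Sparc, Postn and Dcn show the widest gaps, and Lum lies under the line at 0.0601 FPKM with Nutlin-3a and 0.0886 FPKM with DMSO.

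Sparc, whose product is a collagen-binding glycoprotein that modulates matrix assembly, had the ratio farthest from 0 among the members compared. Its level was 98.3 FPKM with Nutlin-3a and 292 FPKM with DMSO, a 2.97-fold lower value with a log2 ratio of -1.56. Its rank among all symbols was 918 with Nutlin-3a and 370 with DMSO, and 1.59% of the genes compared had a lower ratio. Of its 2 listed transcripts, the main one had 98.3 FPKM with Nutlin-3a and 264.5 FPKM with DMSO. The minor one had 0.0210 FPKM with Nutlin-3a and 27.7 FPKM with DMSO, where it made up 9.47% of the gene. The main transcript taken alone had a log2 ratio of -1.42. How the authors' quantifier divided fragments between the transcripts is not given in the sources used here, so the split is less certain than the sum.

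Postn encodes periostin, a fasciclin-domain protein that binds integrins and collagen. It had 60.0 FPKM with Nutlin-3a and 132 FPKM with DMSO, a 2.20-fold lower value and a log2 ratio of -1.13. All 3 of its listed transcripts were lower in Nutlin-3a. The main transcript had 50.8 FPKM with Nutlin-3a and 116.6 FPKM with DMSO. The next had 6.60 FPKM with Nutlin-3a and 10.4 FPKM with DMSO, and the weakest 2.55 FPKM with Nutlin-3a and 5.14 FPKM with DMSO. The transcripts thus kept a similar makeup, with the main one at 84.7% of the gene in Nutlin-3a and 88.2% in DMSO.

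The other matricellular members stayed within 2-fold. Tnc, the gene of the large oligomeric glycoprotein tenascin-C, had 4.74 FPKM with Nutlin-3a and 6.39 FPKM with DMSO, a log2 ratio of -0.37. Thbs1, whose product activates latent TGF-beta and binds CD36 and CD47, had 37.2 FPKM with Nutlin-3a and 30.9 FPKM with DMSO (log2 ratio 0.26). Thbs2, its closest relative, had 28.8 FPKM with Nutlin-3a and 26.8 FPKM with DMSO (log2 ratio 0.10). The ratio of Thbs1 to Thbs2 was 1.29 with Nutlin-3a and 1.15 with DMSO, so both thrombospondins were present at similar levels in either group. The direction of Thbs2 is not settled, since its log2 ratio was -0.05 after a correction for GC content and -0.04 after one for transcript length.

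Ctgf, a CCN family gene and a common readout of TGF-beta and YAP activity, was weak in these cells. It had 1.70 FPKM with Nutlin-3a and 1.03 FPKM with DMSO, a log2 ratio of 0.41 and a plain fold of 1.65. It ranked 9518 with Nutlin-3a and 10035 with DMSO. The related CCN gene Cyr61, by contrast, had 85.2 FPKM with Nutlin-3a and 43.3 FPKM with DMSO, a log2 ratio of 0.96 just under the limit, which it passed when FPKM was scaled without ribosomal protein genes.

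Fn1, the fibronectin gene, stayed close between the groups at 171 FPKM with Nutlin-3a and 205 FPKM with DMSO, a log2 ratio of -0.26. It had 8 listed transcripts, and 1 of them carried 95.9% of the gene in Nutlin-3a and 98.4% in DMSO. A weak transcript had 2.31 FPKM with Nutlin-3a and 0.00489 FPKM with DMSO, and 3 others were listed at 0 in DMSO with at most 0.375 FPKM in Nutlin-3a. Those weak transcripts hold little of the gene, and a listed 0 can be a failed estimate, so no fold is given for them. Which splice forms of fibronectin they stand for was not analysed here. The ratio of Sparc to Fn1, both expressed per length, was 0.575 with Nutlin-3a and 1.42 with DMSO, so their order differed between the groups.

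**Figure D2:**
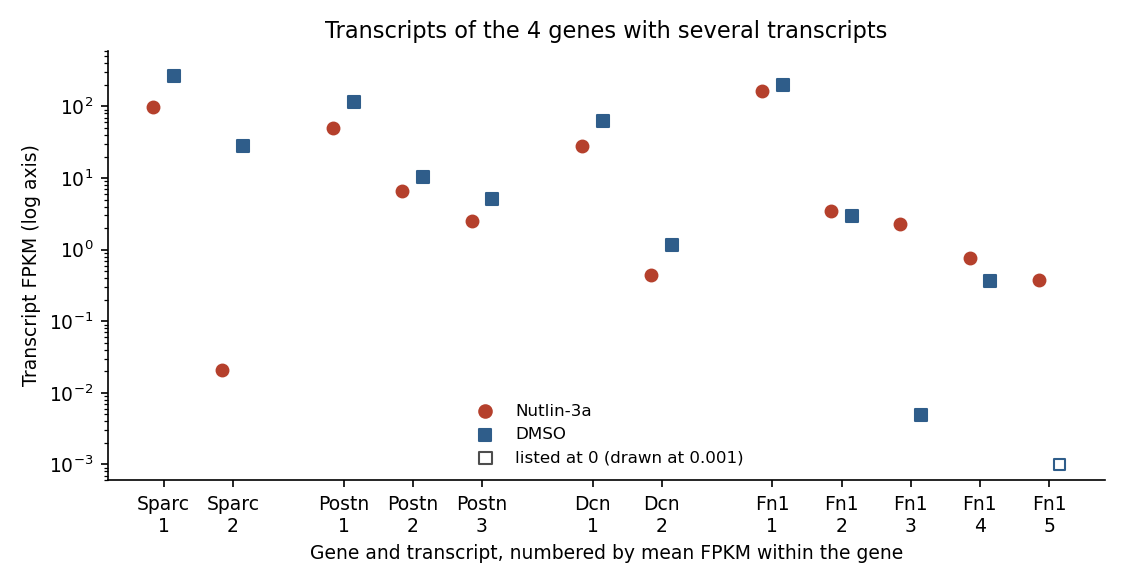
FPKM on a log axis of the transcripts of Sparc, Postn, Dcn and Fn1 with at least 0.3 FPKM in a group, numbered by mean FPKM within each gene, with circles for Nutlin-3a and squares for DMSO. The second Sparc transcript lies at 0.0210 FPKM with Nutlin-3a and 27.7 FPKM with DMSO, and an open square marks a listed 0.

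The leucine-rich proteoglycans ranged from the most abundant member to the weakest. Dcn encodes decorin, which wraps collagen fibrils and binds TGF-beta. It had 28.9 FPKM with Nutlin-3a and 64.6 FPKM with DMSO, a 2.24-fold lower value and a log2 ratio of -1.14. Its main transcript held 98.5% of the gene in Nutlin-3a and 98.2% in DMSO, so its makeup was similar in both groups. Bgn encodes biglycan, the nearest relative of decorin. It had 625 FPKM with Nutlin-3a and 786 FPKM with DMSO, a log2 ratio of -0.33 within the limit, and ranked 201 with Nutlin-3a and 175 with DMSO. The ratio of Bgn to Dcn was 21.7 with Nutlin-3a and 12.2 with DMSO. Lum, the gene of lumican, stood at 0.0601 FPKM with Nutlin-3a and 0.0886 FPKM with DMSO. Lum lies next to Dcn on chromosome 10, 47.0 kb away, so a gene near 0 and a gene of moderate level are neighbours there. Kera, the keratocan gene on the other side of Lum, was also at or near 0, listed at 0 with Nutlin-3a and 0.0941 FPKM with DMSO.

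The 10 genes together summed to 1056 FPKM with Nutlin-3a and 1546 FPKM with DMSO, which was 0.109% of all FPKM with Nutlin-3a and 0.158% with DMSO. Bgn alone made up 59.2% of the members' sum in Nutlin-3a and 50.9% in DMSO. Sparc made up 9.31% in Nutlin-3a and 18.9% in DMSO, and Fn1 16.2% in Nutlin-3a and 13.3% in DMSO. The lower sum thus came with a smaller share for Sparc and larger shares for Bgn and Fn1. By level, the order in Nutlin-3a was Bgn, Fn1, Sparc, Postn, Thbs1, Dcn, Thbs2, Tnc, Ctgf and Lum. In DMSO it was Bgn, Sparc, Fn1, Postn, Dcn, Thbs1, Thbs2, Tnc, Ctgf and Lum. Without library values, neighbours in either order cannot be set against their spread, and Dcn and Thbs2 lay side by side in Nutlin-3a at 28.9 and 28.8 FPKM.

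**Figure D3:**
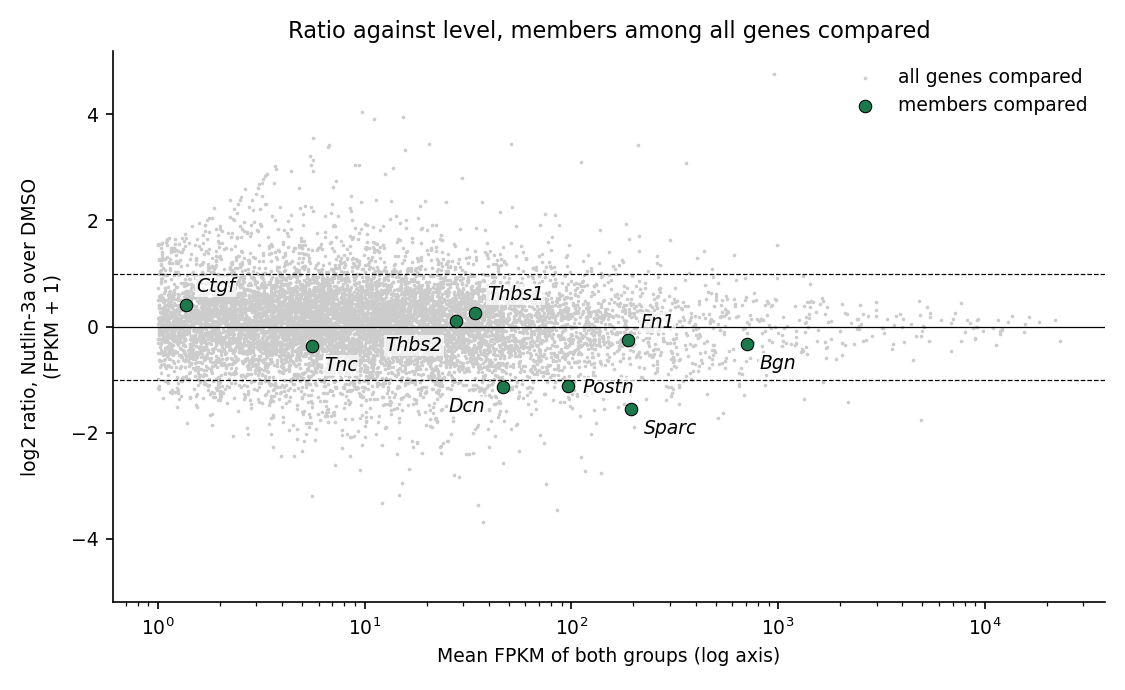
Log2 ratios (Nutlin-3a over DMSO, FPKM + 1) against mean FPKM on a log axis, for 10331 genes (grey) and the 9 members compared (green), with dashed lines at the 2-fold limit and 1 grey gene outside the axis. Sparc, Postn and Dcn lie below the lower line and the other 6 members between the lines.

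In mm10, as the authors' table lists the gene models counted from 1, Sparc lies on chromosome 11 from 55394159 to 55420080 and Postn on chromosome 3 from 54361107 to 54391041. Dcn lies on chromosome 10 from 97479500 to 97518162, Lum from 97565501 to 97572703 and Ctgf, on the same chromosome, from 24595442 to 24598682. Bgn lies on chromosome X from 73483635 to 73495936, Fn1 on chromosome 1 from 71585473 to 71653234 and Tnc on chromosome 4 from 63959785 to 64047015. Thbs1 lies on chromosome 2 from 118111922 to 118127133 and Thbs2 on chromosome 17 from 14665500 to 14694262. All are protein-coding genes, and none of these models reached over another protein-coding gene of GENCODE M21. A noncoding gene on the opposite strand overlapped the models of Tnc, Thbs1, Ctgf and Fn1. Whether counting used strand is not given in the sources used here, so reads from the overlapping stretches cannot be assigned to member or partner. The extent of the overlaps was not measured. Of these partners, only Apol7d, which overlaps Fn1, was itself among the symbols of the authors' table.

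Few protein-coding genes beside the members were expressed strongly enough to compare. Of 20 flanking positions, 5 held a gene, other than a member, that passed the minimum level. Among these 5, none was lower and 1, Mreg, was higher, against 6.14% lower and 6.62% higher over all genes, a number too small to read anything from. Atox1, a copper chaperone gene 26.6 kb from Sparc, had 1806 FPKM with Nutlin-3a and 1040 FPKM with DMSO (log2 ratio 0.80). Btg1, an antiproliferative gene 856.7 kb from Dcn, had 39.9 FPKM with Nutlin-3a and 29.4 FPKM with DMSO. Haus7, a spindle gene 24.6 kb from Bgn, had 48.0 FPKM with Nutlin-3a and 35.7 FPKM with DMSO. Beside Fn1, the purine synthesis gene Atic had 26.2 FPKM with Nutlin-3a and 22.3 FPKM with DMSO, and Mreg, the melanoregulin gene, had 2.50 FPKM with Nutlin-3a and 0.105 FPKM with DMSO (log2 ratio 1.66). Both neighbours of Postn were either not compared or not listed.

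Promoter sequence was found in RefSeq (GRCm38.p6, the same chromosomes as mm10) for 5 members, Bgn, Postn, Sparc, Thbs2 and Tnc, in 7 windows from 250 bases before to 50 after a gene start. The stretches below are the 250 bases before the start of Sparc and Postn, which were both lower, and of Bgn, the most abundant member. They run 5′ to 3′ on the gene's strand, and capitals mark a TATA box (TATAAA) or a GC box (GGGCGG) on either strand.
Sparc, chr11:55420081-55420330, minus strand: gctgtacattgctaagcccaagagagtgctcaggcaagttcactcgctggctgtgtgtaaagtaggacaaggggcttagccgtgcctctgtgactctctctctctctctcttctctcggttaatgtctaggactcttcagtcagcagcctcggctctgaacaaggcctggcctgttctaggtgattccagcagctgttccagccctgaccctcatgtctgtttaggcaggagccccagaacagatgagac
Postn, chr3:54360857-54361106, plus strand: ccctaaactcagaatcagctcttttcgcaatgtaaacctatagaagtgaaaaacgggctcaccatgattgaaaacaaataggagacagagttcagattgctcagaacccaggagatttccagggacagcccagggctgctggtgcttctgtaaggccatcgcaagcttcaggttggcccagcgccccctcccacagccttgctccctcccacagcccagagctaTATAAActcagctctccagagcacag
Bgn, chrX:73483351-73483600, plus strand: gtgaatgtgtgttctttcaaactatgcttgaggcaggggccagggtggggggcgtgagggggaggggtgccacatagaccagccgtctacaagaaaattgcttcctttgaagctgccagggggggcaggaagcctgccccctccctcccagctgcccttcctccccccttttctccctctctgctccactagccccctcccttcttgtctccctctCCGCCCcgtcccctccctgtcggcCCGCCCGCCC

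Of the 6 motifs searched, the Sparc window held none, so the lower genes Sparc and Postn shared none of them. The Postn window printed above held a TATA box that begins 26 bases before the start, and the Bgn stretch held 3 GC boxes, of which 2 overlap each other. Elsewhere, the overlapping windows of Tnc held the same TATA box and GC box, a further Postn window held a CCAAT box after its start, and Thbs2 held a TATA box and 2 CCAAT boxes. On both strands of all 32851 RefSeq windows of 300 bases, TATAAA occurred in 13.6%, GGGCGG in 35.7% and CCAAT in 37.4%. The other motifs were CATTCC, bound by TEAD factors and present in 14.7% of windows, TGANTCA, bound by AP-1, in 7.81%, and GTCTAGAC, bound by SMAD proteins, in 0.213%. No window of a member held any of these. These matches describe letters in the windows and say nothing about which factors bind there.

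Relatives of the matricellular members included several genes that were lower. Of 21 on the list, 20 were in the table and 10 were compared, of which 4 were lower and none was higher, against 6.14% lower over all genes. Their median log2 ratio was -0.86. Tgfbi, a fasciclin-domain relative of periostin, had 20.2 FPKM with Nutlin-3a and 68.6 FPKM with DMSO, a 3.39-fold lower value. Fstl1, a follistatin-like relative of SPARC, had 47.3 FPKM with Nutlin-3a and 128 FPKM with DMSO. The CCN gene Nov had 0.319 FPKM with Nutlin-3a and 2.02 FPKM with DMSO, and the tenascin gene Tnxb 1.91 FPKM with Nutlin-3a and 5.13 FPKM with DMSO. With a minimum mean of 5 FPKM, 2 of 8 were lower, since Nov and Tnxb were then left out. Spp1, the osteopontin gene, named here after its values were seen, was the most abundant of these relatives, at 1614 FPKM with Nutlin-3a and 1162 FPKM with DMSO.

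Relatives of the proteoglycans were mostly weak. Of 15 on the list, 14 were in the table and 6 were compared, and 4 were lower with none higher, against 6.14% lower and 6.62% higher over all genes. The median log2 ratio of the 6 was -1.23. Ogn, the osteoglycin gene, had 0.961 FPKM with Nutlin-3a and 9.02 FPKM with DMSO, a 9.38-fold lower value. Podnl1, a podocan-like gene, had 0.372 FPKM with Nutlin-3a and 3.29 FPKM with DMSO. Prelp, whose product anchors basement membranes to tissue, had 1.11 FPKM with Nutlin-3a and 4.15 FPKM with DMSO, and Fmod, the fibromodulin gene, 0.918 FPKM with Nutlin-3a and 3.33 FPKM with DMSO. With a minimum mean of 5 FPKM, 1 gene of this list remained and none was lower, so this count rests on weak genes. Of the large and cell surface proteoglycans, none of 10 compared passed the limit in either direction, and their median was 0.21. Under other processing the count of higher genes in this list ranged from 0 to 2, with 2 after a correction for GC content. The heparan sulfate proteoglycan genes Sdc1 and Sdc4, both syndecans, had 109 and 102 FPKM with Nutlin-3a, against 58.3 and 69.4 FPKM in DMSO. The syndecan genes Sdc2 and Sdc3 went the other way, with 28.7 and 12.5 FPKM with Nutlin-3a, against 30.8 and 24.0 FPKM in DMSO.

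Among other matrix genes, several genes of fibrils and their processing were lower. Of 10 collagens of fibrils and microfibrils compared, 6 were lower and none was higher, against 6.14% lower over all genes, and the median was -1.07. After a correction for GC content 4 of the 10 were lower. Col2a1, at 1.72 FPKM with Nutlin-3a and listed at 0 with DMSO, was not compared. The chain gene Col5a3 had 3.78 FPKM with Nutlin-3a and 10.1 FPKM with DMSO. The log2 ratios of Col3a1, Col1a2 and Col1a1 were -1.68, -1.63 and -1.58. Of 8 fibulins, fibrillins and microfibril genes compared, 3 were lower and none was higher, against the same 6.14% (median -0.56). Emilin1, which binds elastic fibres, had 9.50 FPKM with Nutlin-3a and 54.5 FPKM with DMSO. The microfibril gene Mfap5 had 1.24 FPKM with Nutlin-3a and 8.97 FPKM with DMSO, and Fbln7, a fibulin gene, 2.77 FPKM with Nutlin-3a and 8.24 FPKM with DMSO. Of 20 matrix processing enzymes and inhibitors compared, 5 were lower and none was higher, again against 6.14% (median -0.33). After a correction for GC content 3 of them were lower. The 5 included Pcolce, an enhancer of procollagen processing (237 FPKM with Nutlin-3a and 788 FPKM with DMSO), Timp1, a protease inhibitor gene (264 FPKM with Nutlin-3a and 643 FPKM with DMSO), and the protease gene Mmp14 (82.8 FPKM with Nutlin-3a and 189 FPKM with DMSO). The stromelysin gene Mmp3 had a log2 ratio of -1.48.

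**Figure D4:**
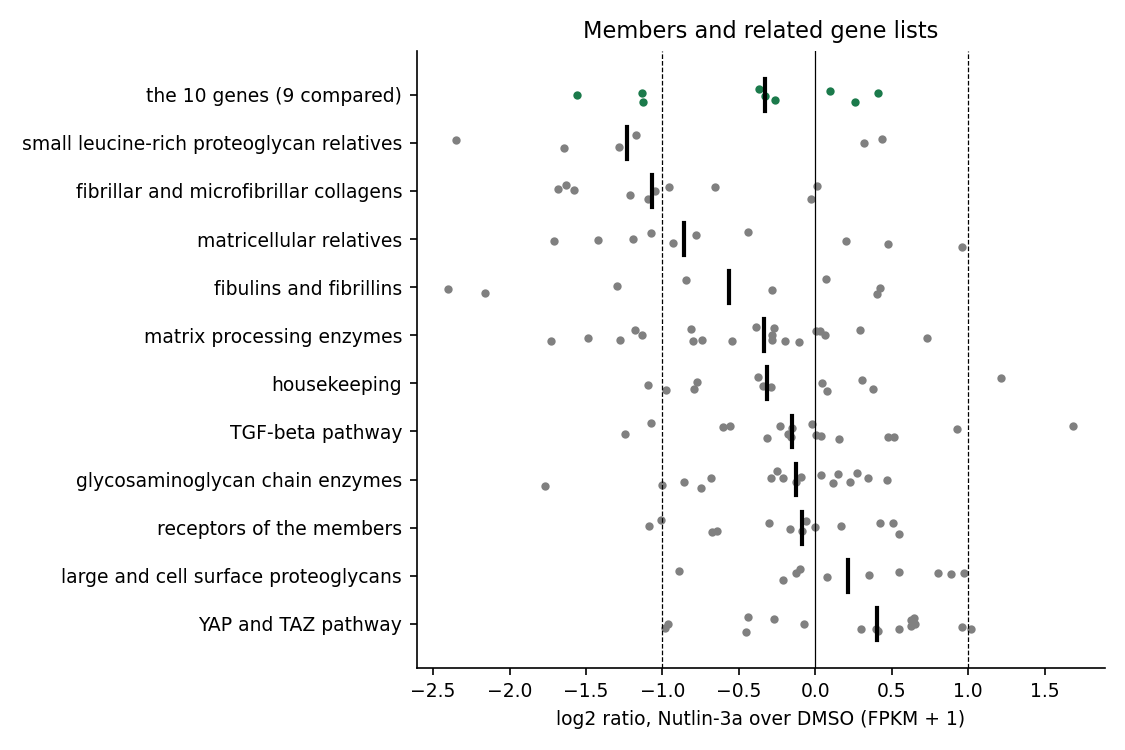
Log2 ratios (Nutlin-3a over DMSO, FPKM + 1) of the compared genes of each list, with a bar at the median and dashed lines at the 2-fold limit. The 9 members compared are at the top with a median of -0.33, the proteoglycan relatives have a median of -1.23 and the YAP and TAZ list one of 0.40.

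Genes that make the sugar chains, act as receptors of the members or belong to the TGF-beta and YAP pathways mostly stayed within the limit. Of 17 enzymes of glycosaminoglycan chains compared, 2 were lower and none was higher, against 6.14% lower over all genes (median -0.12). Chst12, a chondroitin sulfotransferase gene, had 11.6 FPKM with Nutlin-3a and 41.8 FPKM with DMSO, and Dse, an epimerase that turns chondroitin into dermatan sulfate, 3.79 FPKM with Nutlin-3a and 8.59 FPKM with DMSO. The count was 1 when FPKM was scaled without ribosomal protein genes. Of 13 receptor genes compared, 2 were lower and none was higher, against the same 6.14% lower (median -0.09). Only 1 was lower under that scaling or with a minimum mean of 5 FPKM. The 2 genes were Itgb3, the beta chain of an integrin that binds several members (2.38 FPKM with Nutlin-3a and 5.81 FPKM with DMSO), and Tlr2, a receptor for biglycan (4.86 FPKM with Nutlin-3a and 11.5 FPKM with DMSO).

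Of 17 TGF-beta pathway genes compared, 2 were lower and 1 was higher, against 6.14% and 6.62% over all genes (median -0.15). The ligand genes Tgfb3 (3.51 FPKM with Nutlin-3a and 9.70 FPKM with DMSO) and Tgfb1 (5.41 FPKM with Nutlin-3a and 12.5 FPKM with DMSO) were lower. Smad7, an inhibitor of the pathway, was higher, at 14.0 FPKM with Nutlin-3a and 3.66 FPKM with DMSO. Of 16 YAP and TAZ genes compared, 1 was higher and none was lower, against 6.62% and 6.14% over all genes (median 0.40). It was the kinase gene Nuak2, at 6.76 FPKM with Nutlin-3a and 2.83 FPKM with DMSO and a log2 ratio of 1.02. No gene of this list was higher with a minimum mean of 5 FPKM, after upper-quartile scaling, quantile normalization or centring on the median, or after a correction for length or level. A log2 ratio below 0 was found in 6 of the 16, against 45.2% of all genes. Tead2, a TEAD factor gene, had 30.6 FPKM with Nutlin-3a and 61.5 FPKM with DMSO and a log2 ratio of -0.98, just inside the limit. The weak gene Ankrd1 had 0.572 FPKM with Nutlin-3a and 2.06 FPKM with DMSO (log2 ratio -0.96), the other direction from Ctgf and Cyr61.

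Several markers of the preadipocyte and fibroblast type were lower, while others stayed within the limit. Of 10 on that list, 9 were compared, of which 5 were lower and 4 within the limit, against 6.14% lower over all genes. The list summed to 4250 FPKM with Nutlin-3a and 11799 FPKM with DMSO. Most of that sum came from S100a4, at 2250 FPKM with Nutlin-3a and 7580 FPKM with DMSO, and Vim. The intermediate filament gene Vim had 1181 FPKM with Nutlin-3a and 3169 FPKM with DMSO. The log2 ratios of Ly6a, S100a4, Pdgfra and Twist1 were -1.89, -1.75, -1.61 and -1.18. Those of Thy1, Pdgfrb and Prrx1, within the limit, were -0.87, -0.74 and -0.54. The preadipocyte marker Dlk1 had 623 FPKM with Nutlin-3a and 513 FPKM with DMSO. The part of these markers in the values of Sparc, Postn and Dcn was not tested. Lists of 6 other cell types summed to between 1.93 and 25.7 FPKM in Nutlin-3a and between 0.218 and 45.8 FPKM in DMSO, the highest in DMSO being that of mature adipocyte genes. Within that list the fatty acid carrier gene Fabp4 had 8.65 FPKM with Nutlin-3a and 42.0 FPKM with DMSO, while Adipoq, the adiponectin gene, had 0.840 FPKM with Nutlin-3a and 0.0409 FPKM with DMSO. Of 36 such markers listed, 10 passed the minimum level, none was at 0 with Nutlin-3a and 15 were at 0 with DMSO. Among the 15 were Col2a1, Acan, Bglap and Sp7 of cartilage and bone, at 0.0238 to 1.72 FPKM with Nutlin-3a. The highest of the 15 with Nutlin-3a was the muscle gene Mb, at 3.13 FPKM. The share of all symbols listed at 0 in each group was not counted, so these zeros are not read as a difference of the markers. The other cartilage and bone genes were mixed. Sox9 had 13.8 FPKM with Nutlin-3a and 15.1 FPKM with DMSO, Alpl 0.0260 and 0.0427 FPKM, and Runx2 8.97 and 4.23 FPKM. Besides Fabp4, the macrophage gene Aif1 was lower, at 0.642 FPKM with Nutlin-3a and 3.13 FPKM with DMSO. The muscle gene Acta1 was higher, at 1.74 FPKM with Nutlin-3a and 0.368 FPKM with DMSO. Among genes listed with 1 transcript whose symbol is also in GENCODE M21, 3048 lay above 0 and below 0.3 FPKM with Nutlin-3a and 2144 with DMSO. Ratios also moved with GC content. Postn and Dcn lay in the lowest of 8 classes of GC content, where the median log2 ratio of all genes was 0.26, and Sparc in the sixth, where it was -0.04.

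**Figure D5:**
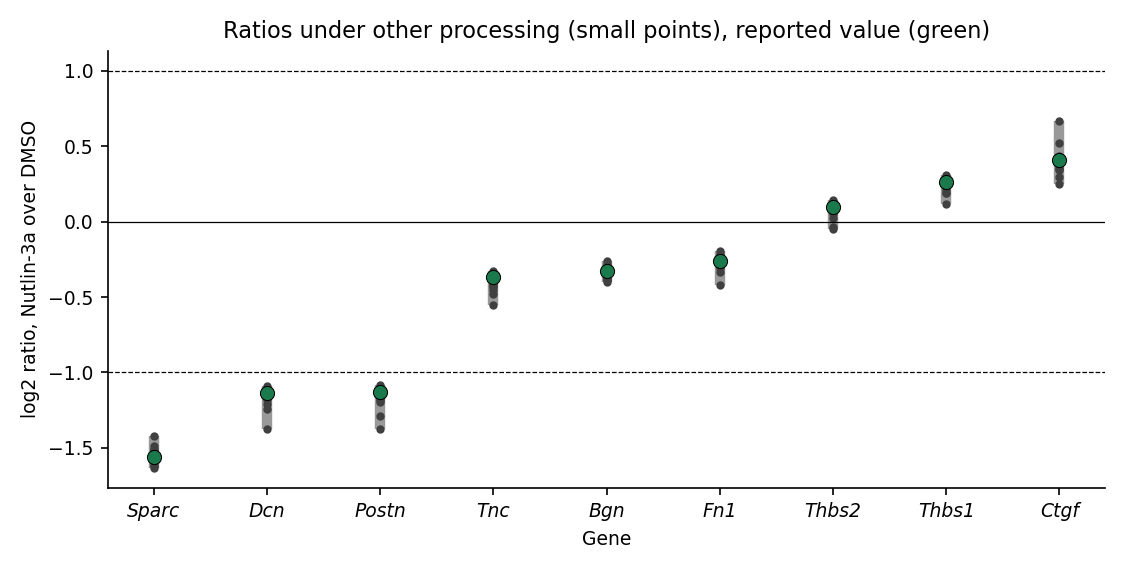
The log2 ratio of each of the 9 members compared, as reported (green) and under up to 12 other ways of processing (small points on a grey bar), with dashed lines at the 2-fold limit. Sparc, Dcn and Postn stay below the lower line throughout, the other members stay between the lines, and Thbs2 spans 0.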

How the data were processed

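Total RNA of 4 libraries, 2 per group by their titles, was extracted with TRIzol and sequenced on Illumina libraries, per the labels' protocols. Per the submitters' processing notes, TopHat2 2.0.11 and mm10 were used. For the quantifier, its annotation and the joining of replicates, no source used here gives details. The deposited FPKM values covered 24746 transcripts, with 1 column per group, per the file headers. The NUT column was taken for Nutlin-3a, and the DSM column for DMSO as the only group left. The deposited columns headed as fold expression matched log2 of the FPKM within 0.0072 and were not used. Library depth was not recovered. For low genes listed with 1 transcript, FPKM was multiplied by the median GENCODE length of the gene. These products showed no common step, with at most 1.21% of them in any 2.5% wide class. The lengths of the listed transcripts were not used, and each value stands for 2 libraries, so a step could be hidden and this check cannot decide the depth. Python 3.11.15 and pandas 2.3.3 summed transcripts per symbol, with a pseudocount of 1. The members and lists were chosen with earlier results of these data known. Genes named beyond the members were up to 4 per list past the limit with the largest ratio, or the most abundant 2 where fewer than 2 passed, and the nearest coding neighbours. Cell type markers, Sdc2, Sdc3, Spp1 and Ankrd1 were named after their values were seen. None was named for likeness of pattern, since 2 values give only a direction. GC content and length were medians over GENCODE M21 transcripts, found for 99.4% of genes compared. The planned limma fit, which needs library values, was not run.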

Additional observations from a re-analysis of the deposited data

How the results depend on the processing

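The count of 3 lower and 0 higher members, Sparc, Postn and Dcn being lower, was the same under all 13 alternatives (pseudocounts, filters, scalings, transcript choice, corrections for GC content, length and level, and a 1.5-fold limit). The members' median log2 ratio lay between -0.42 and -0.26 under the 12 alternatives that gave one. Sparc ranged from -1.63 to -1.42, Postn from -1.38 to -1.08 and Dcn from -1.38 to -1.09. With a mean FPKM of at least 5, 391 of the 6888 genes left were higher, beside 684 of 10331 as reported. At the 1.5-fold limit 1566 of all genes compared were lower and 1839 higher. The split between higher and lower calls moved with scaling, to 598 higher and 714 lower after quantile normalization. Of 288 list counts recomputed, 36 differed from the reported count by over 1.5 times or changed between 0 and a count above 0. In the YAP and TAZ list, the count of higher genes ranged from 0 to 2 and that of lower genes from 0 to 2. The cause was not tested. No paired analysis was possible because the table holds 1 value per group, and leaving out a replicate could not be run for the same reason. Precision is limited by the unknown depth, most of all for Ctgf and Lum.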
